A study of Bos taurus with 28 samples.

Results

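Gene expression in skeletal muscle was compared within 6 feed-restricted steers between the end of energy restriction on day 99 and day 131, when they had received a restored ration for 32 days. The comparison was defined by the labels alone: the restricted steers at day 131 against the same steers at day 99. It holds 12 of the 24 samples and 14 of the 28 libraries of the series. The other 12 samples come from 6 control steers biopsied on the same days. All animals were male crossbred Aberdeen Angus x Holstein Friesian cattle. Up to day 99 the restricted steers ate grass silage without limit and 0.5 kg of concentrate per day, while the control steers had concentrates without limit and 7 kg of grass silage per day. After day 99 both diets were replaced by one mixed ration of 80 parts silage to 20 parts concentrate, so the control steers also changed feed. No group was sampled that stayed on its earlier diet, so the new ration cannot be told apart from the passing of 32 days.

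Cattle that have been underfed and are then fed freely often grow faster than animals of the same age that were never restricted, which is called compensatory growth. Skeletal muscle is one of the tissues that takes part: under restriction its protein turnover and energy use fall, and when feed returns, protein synthesis, the supply of amino acids and the building of the contractile and connective tissue rise again. The comparison asks which transcripts differed between these states in the same animals.

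A biopsy holds muscle fibres together with fat, vessel, immune and connective tissue cells, and in such a sample fewer cells of a type and less RNA per cell cannot be told apart. The files give Ensembl gene identifiers without names, and none of the 24616 identifiers could be matched to a symbol in the reference table. The labelled tissue could therefore not be checked against muscle markers, pathways and cell types could not be described, and genes are described below by their levels and patterns. Of the identifiers, 3358 had 0 counts in every sample and 11288 had enough counts to be tested.

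The total counts of the restricted samples ranged from 4632566 to 24376288 at day 99 and from 4023531 to 7657350 at day 131. They were lower at day 131 in 5 of 6 steers, with means of 11641887 ± 6838366 (SD, n = 6) and 6148341 ± 1547309. An exact two-sided sign-flip permutation test gave p = 0.156 (adjusted p = 0.188 over 4 measures), and the smallest p that 6 pairs allow is 0.0312. The 10 most abundant genes held 14.0% ± 1.92 of the counts at day 99 and 15.7% ± 2.19 at day 131 (exact p = 0.188). The number of genes detected was 15639 ± 825 at day 99 and 14899 ± 726 at day 131 (exact p = 0.156). The TMM scaling factor, which corrects for a few genes taking many counts, was 1.02 ± 0.197 at day 99 and 0.895 ± 0.0807 at day 131 (exact p = 0.156), with the highest value, 1.37, in steer 5 at day 99. The part of depth and composition in the results below was not tested beyond the alternative scalings.

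How many genes passed in restricted steers depended on the fit. With all 4 groups fitted together 43 of 11288 genes did, and in the paired fit of the restricted samples alone 300 of 10187 did. In both fits more rose than fell. The main fit, with all 4 groups together, had no steer term, so it treated the 2 samples of a steer as independent. At a Benjamini-Hochberg adjusted p under 0.05, its edgeR quasi-likelihood test called 43 of the 11288 genes (0.381%). Of these, 31 (0.275%) rose and 12 (0.106%) fell. Their smallest adjusted p was 0.00326, and the values just inside and just outside the threshold were 0.0444 and 0.0504. Without adjustment, 2116 genes had p under 0.05, split into 1033 (9.15%) with a rise and 1083 (9.59%) with a fall. The excess of rises was thus a feature of the genes past the adjusted threshold and not of this wider set. With each steer as a block, so that only the change within an animal counts, 62 genes passed: 46 higher (0.408%) and 16 lower (0.142%). The 2 sets shared 36 genes, and 26 passed only with the block. Of the 31 genes that rose, 28 also passed with the block, and of the 12 that fell, 8 did. Over all 12 that fell, the median log2 fold change with the block was -1.74 in place of -2.12. The block on the restricted samples alone called 300 genes, 206 higher and 94 lower, of which 32 were among the 43. DESeq2 on all 4 groups called 239, 159 higher and 80 lower, which included the 43.

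Control steers passing from their own diet to the same ration over the same days gave no gene past the edgeR threshold (0 of 11288, 0%). Their smallest adjusted p was 0.722, and 439 genes had an unadjusted p under 0.05, 212 higher (1.88%) and 227 lower (2.01%). DESeq2 and limma voom also called 0 genes in control steers, with a smallest adjusted p of 0.0621 and 0.669. They gave 750 and 459 control genes at an unadjusted p under 0.05. Part of this low number rests on few libraries. In 3 samples the TMM factor was over 1.3: those of control steer 3 and restricted steer 5 taken on day 99, and that of control steer 5 taken on day 131. When these were left out, edgeR gave 1744 control genes at an unadjusted p under 0.05 with a smallest adjusted p of 0.224, close to the 1864 genes of the restricted steers in that fit. It still called 0 in control steers and 66 in restricted steers. These counts do not show that the 2 diets differed in their change. The difference itself, the diet by day interaction in edgeR, gave 0 genes (0%), with a smallest adjusted p of 0.224 and 283 genes (2.51%) at an unadjusted p under 0.05. DESeq2 called 2 genes for the interaction and limma voom called 0.

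The size of the change depended on how abundant the gene was. Over all genes tested the median log2 fold change was -0.07, with 90% of genes between -1.01 and 0.88. In the 2258 least abundant genes (mean of 0.381 to 2.71 counts per 1000000 counts, CPM, over the restricted samples) the median was -0.31, and in the 2258 most abundant genes (63.8 CPM and above) it was 0.18. Control steers had nearly the same shift: medians of -0.31 and 0.20 for these genes. The called genes did not follow this tilt. Of the 31 that rose, 14 lay in the lowest of 5 equal classes of abundance, where the median of all genes was negative, and 1 lay in the highest class. Of the 12 that fell, 2 lay in the lowest class and 4 in the highest, where the median was positive.

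**Figure D1:**
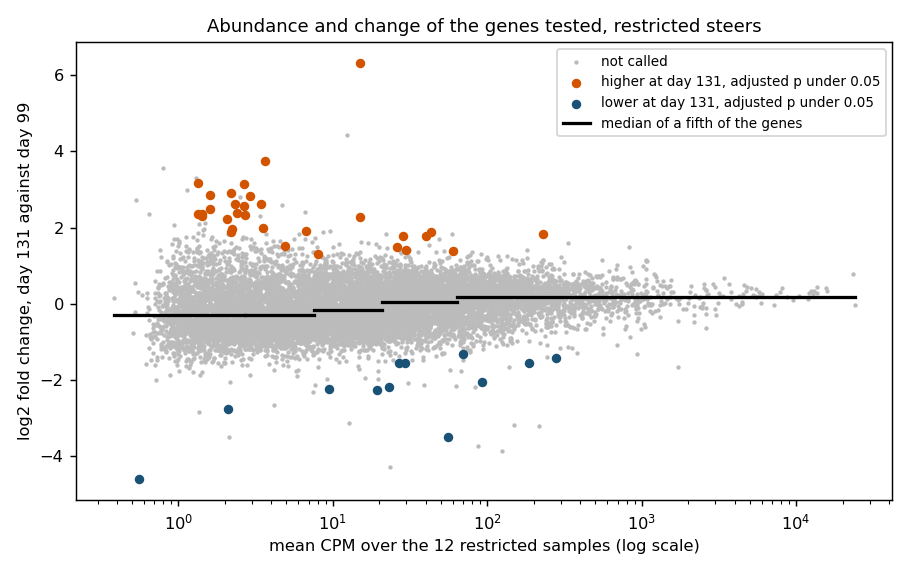
Each point is 1 of the 11288 genes tested, with its mean CPM over the 12 restricted samples on a log axis and its log2 fold change from day 99 to day 131 on the vertical axis. Black lines mark the median of each of 5 equal classes of abundance, which passes from -0.31 at low to 0.18 at high abundance, while the 31 genes that rose lie mostly at low CPM and the 12 that fell mostly at higher CPM.

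The genes that rose were mostly transcripts of low abundance. Their log2 fold changes ran from 1.305 to 6.32, with a median of 2.30, which is a 4.94-fold increase. The median gene of this group had a mean of 0.882 CPM at day 99 and 5.08 CPM at day 131. A mean under 5 CPM over the restricted samples was found for 20 of the 31 genes (64.5%), against 32.0% of all genes tested. The low-count filter asks for counts in only as many samples as 1 group holds, so a gene could pass it through day 131 alone. How many of the 31 did so was not tested. None of the 31 had 0 counts in all 6 day 99 samples, which holds for every gene tested. In 5 of the 31 at least 1 day 99 sample had 0 counts, and no day 131 sample did. Over all 11288 genes tested, 101 had 0 counts in at least 1 restricted day 99 sample. At day 131 this was so for 169. Among the 31, genes of low abundance also had the larger fitted changes. The 7 genes with at least 20 CPM changed by 1.38 to 1.89 on the log2 scale, with a median of 1.78. The others had a median of 2.36. Over all genes tested the median SE was 0.487 in the lowest class of abundance and 0.277 in the highest. A gene of low abundance thus needed a larger change to be called, so this difference is partly set by the choice of genes.

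The strongest rise belonged to ENSBTAG00000010411. Its lowest, median and highest values over the restricted steers were 0, 0.384 and 0.926 CPM at day 99, and 1.74, 13.5 and 102.7 CPM at day 131. No day 131 sample overlapped with day 99, but the day 131 values covered a wide span: steers 1, 2 and 4 reached 43.1, 102.7 and 20.5 CPM, whereas steers 3, 5 and 6 reached 6.52, 1.74 and 3.67 CPM. The sample with 0 counts, steer 5 at day 99, allows a level of up to 0.284 CPM, taking 3 counts as the limit that a count of 0 allows. The mean passed from 0.425 ± 0.383 to 29.7 ± 39.0 CPM (SD, n = 6), a log2 fold change of 6.32 ± 1.34 (SE) with an edgeR adjusted p of 0.0278. With the steer block it was 5.57 (adjusted p = 0.0335). The call was lost without day 99 of steer 2, 3 or 5 (edgeR adjusted p = 0.0867, 0.0886 and 0.117). It was also lost without both samples of any one of steers 1 to 5 (0.0523 to 0.156) and with no filter (0.0912). Leaving out the samples with a TMM factor over 1.3 lost it too (0.0773). Without day 131 of steer 2 the log2 fold change was 5.39. At day 99 no restricted sample had more than 8 counts of this gene, so the size of the fold rests on few reads.

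Control steers did not share a direction for ENSBTAG00000010411. It was higher at day 131 in 4 of 6 and lower in 2, with values of 0.228 to 9.58 CPM at day 99 and 0.513 to 35.9 CPM at day 131. The fitted log2 change in controls was 1.404, and the difference between the diets was 4.92 ± 1.65 (SE), with an unadjusted edgeR p of 0.00636 and an adjusted p of 1.00.

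ENSBTAG00000046988 rose from a lowest, median and highest value of 0, 0.171 and 1.63 CPM at day 99 to 2.94, 5.84 and 12.3 CPM at day 131. Every restricted steer ended above every day 99 value. Steer 6 had the highest day 99 level and the smallest change, 1.07 on the log2 scale, and steer 3, which had 0 counts at day 99 (a limit of 0.235 CPM), had the largest, 4.90. The means were 0.528 ± 0.692 and 6.80 ± 3.71 CPM (SD, n = 6), and the log2 fold change was 3.75 ± 0.77 (SE) with an edgeR adjusted p of 0.0175. With the steer block it was 4.185 (edgeR adjusted p = 0.01535), and without day 99 of steer 6 it was 4.69. The call was lost without day 99 of steer 2, 3 or 5 or day 131 of steer 1 or 4 (edgeR adjusted p = 0.0514 to 0.0609). It was also lost without both samples of any one of steers 1 to 5 (0.0618 to 0.102). In controls this gene was higher at day 131 in 5 of 6 steers, from a mean of 2.62 ± 1.355 to 6.04 ± 5.49 CPM. The control steers thus began at a higher level than the restricted steers and ended at a similar mean. The difference between the diets' changes was 2.59 ± 1.00 (SE), with an unadjusted edgeR p of 0.0148 and an adjusted p of 1.00.

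At the other end of the abundance range, the most abundant of the 31 genes had 63.8 to 164.1 CPM at day 99 and 151.6 to 665.0 CPM at day 131. It was higher in 6 of 6 steers, although the groups overlapped at their edges. Its mean passed from 100 ± 37.9 to 356.1 ± 188.3 CPM (SD, n = 6), a log2 fold change of 1.83 ± 0.38 (SE) with an edgeR adjusted p of 0.0175. Control steers had 193.6 ± 96.8 CPM at day 99 and 254.1 ± 96.2 CPM at day 131, a log2 change of 0.39.

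The 12 genes that fell were more abundant than those that rose. Their log2 fold changes ran from -4.60 to -1.32, with a median of -2.12 (4.36-fold). The median gene had 42.0 CPM at day 99 and 11.4 CPM at day 131. At least 20 CPM was found for 8 of 12 genes (66.7%), against 40.9% of all genes tested. At day 99 their levels also varied more between steers: the median SD of log2 CPM was 0.85 at day 99 and 0.43 at day 131, and it was larger at day 99 in 9 of 12 genes (75%). This holds in part for the whole table, where the SD was larger at day 99 for 69.0% of genes, with medians of 0.59 and 0.44.

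ENSBTAG00000014069 had the largest fall among the called genes with a mean of at least 1 CPM. A gene of lower abundance, at 0.56 CPM over the restricted samples, had the fall of -4.60 and is not described further. The lowest, median and highest values of ENSBTAG00000014069 were 32.4, 63.97 and 313.4 CPM at day 99, and 4.402, 8.42 and 16.2 CPM at day 131. All 6 restricted steers fell to a narrow band, and steer 5 was the highest on both days. The means were 102.6 ± 104.9 and 9.01 ± 3.87 CPM (SD, n = 6), and the log2 fold change was -3.49 ± 0.69 (SE) with an edgeR adjusted p of 0.0115. With the steer block the log2 fold change was -3.18 (edgeR adjusted p = 0.0225). Without steer 5 at day 99 the fall was -2.73 with an edgeR adjusted p of 0.0591. The call was also lost without day 131 of steer 4 (-3.47, edgeR adjusted p = 0.0571), without both samples of any one of steers 1 to 5 (0.0605 to 0.0673), with no filter (0.0679) and with a minimum mean of 5 CPM (0.0517).

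The same gene was lower at day 131 in 4 of 6 control steers. Their means were 66.7 ± 72.0 CPM at day 99 and 11.9 ± 8.99 CPM at day 131 (SD, n = 6), a log2 change of -2.47 ± 0.65 (SE) with an unadjusted edgeR p of 0.000737 and an adjusted p of 0.722. The diets' changes differed by -1.03 ± 0.89 (SE), with an unadjusted edgeR p of 0.258. The test did not show the fall of ENSBTAG00000014069 to differ between the diets, and the standard error leaves room for a difference in either direction.

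ENSBTAG00000016768 fell from a lowest, median and highest value of 1.32, 2.82 and 7.22 CPM to 0, 0.472 and 1.20 CPM. The groups did not overlap, although the lowest day 99 sample (steer 6) and the highest day 131 sample (steer 5) lay close together. Steer 6 at day 131 had 0 counts, which allows a level of up to 0.733 CPM. The log2 fold change was -2.77 ± 0.63 (SE) with an edgeR adjusted p of 0.0363, and -2.90 with the steer block (adjusted p = 0.00932). The call was lost in 15 of 26 alternative fits, among them run as a covariate (edgeR adjusted p = 0.0515) and leaving out day 99 of steer 2, 3, 4 or 5 or day 131 of steer 1, 2, 3, 4 or 6 (0.0565 to 0.126). Control steers had 1.23 ± 1.299 CPM at day 99 and a log2 change of -1.72. The diets' changes differed by -1.06, with an unadjusted edgeR p of 0.26.

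**Figure D2:**
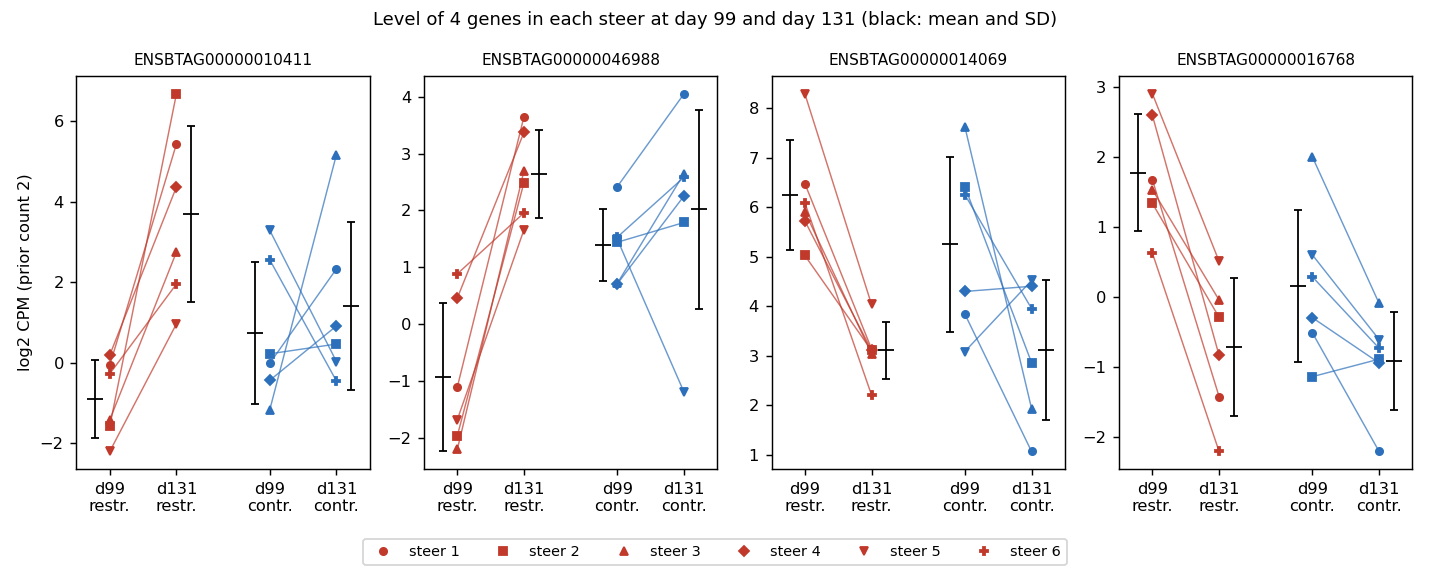
Each line joins the day 99 and day 131 samples of 1 steer, with log2 CPM (prior count 2) on the vertical axis, restricted steers in red and control steers in blue, and the marker shape giving the steer's number within its diet. Black bars are the mean and SD of 6 steers. In all 4 genes the restricted steers share a direction, while in each gene at least 1 control steer goes the other way from the rest.

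The most abundant gene that fell had 245.5 to 482.1 CPM at day 99 and 83.9 to 239.2 CPM at day 131, with no overlap. Its mean passed from 407.5 ± 89.6 to 152.2 ± 60.2 CPM (SD, n = 6), a log2 fold change of -1.42 ± 0.31 (SE) with an edgeR adjusted p of 0.0291. Control steers had 263.9 ± 137.6 CPM at day 99 and 214.5 ± 82.4 CPM at day 131, a log2 change of -0.30.

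All 31 genes that rose were higher at day 131 in every restricted steer, and 11 of the 12 that fell were lower in every one. The day groups did not overlap in 23 of the 31 and in 9 of the 12. These counts come from the values that chose the genes and are given as a description only. Over all genes tested, 801 (7.10%) were higher and 460 (4.08%) lower in 6 of 6 restricted steers, against 44 (0.390%) and 180 (1.59%) in 6 of 6 control steers. In restricted steers 126 genes (1.12%) had every day 131 sample above every day 99 sample and 54 (0.478%) had every one below. In control steers these counts were 1 (0.00886%) and 6 (0.0532%). The difference between the diets in these counts was not tested.

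The size of the change over the called genes varied between animals. The median change of the 31 genes that rose was 1.85, 1.99, 2.34, 1.803, 2.13 and 1.36 on the log2 scale in restricted steers 1 to 6. Over the 12 genes that fell it was -1.90, -1.90, -1.98, -1.50, -2.19 and -0.86. Steer 6 had the smallest change in both sets. In control steers 1 to 6 the 31 genes had medians of 0.10, 0.38, 1.05, 0.52, -0.16 and -0.13, and the 12 genes had medians of -0.70, -0.33, -1.78, -0.60, 0.35 and 0.24. Control steer 3 thus moved as far as some restricted steers for the genes that fell, and in control steers 5 and 6 the quartiles of both sets lay on either side of 0.

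**Figure D3:**
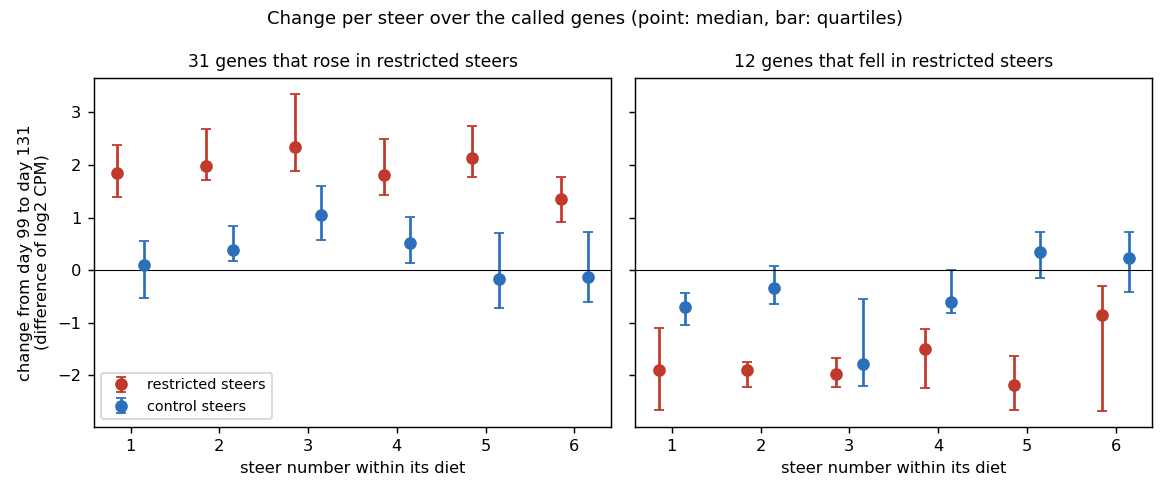
The change from day 99 to day 131 (difference of log2 CPM) over the 31 genes that rose (left) and the 12 that fell (right) is given for each steer, with points for the median and bars for the quartiles. Restricted steers lie between 1.36 and 2.34 on the left and between -2.19 and -0.86 on the right, with steer 6 nearest to 0 in both, and control steers lie between -0.16 and 1.05 and between -1.78 and 0.35.

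Fitted jointly with the controls, the 31 genes that rose had a median change of 0.44 in control steers, and 29 of them were above 0. The 12 that fell had a control median of -0.29, and 10 were below 0. Over all 11288 genes tested the control median was -0.10, with 4784 genes above 0 and 6504 below 0. The median difference between the diets was 1.77 for the first set and -1.22 for the second. The unadjusted interaction p was under 0.05 in 28 of 31 and in 9 of 12 (background 2.51%), and the smallest edgeR adjusted p was 0.224 and 0.293. Since these genes were chosen for their change in the same restricted samples, the counts support nothing further.

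Steers also differed in how much of the whole table moved. A change of more than 1 on the log2 scale in either direction was seen in 53.5% of the genes in steer 5, 30.5% in steer 2 and 25.2% in steer 3. It was seen in 18.9% in steer 1, 14.7% in steer 6 and 12.0% in steer 4. The changes of steers 2 and 5 were the most alike, with Pearson's r of 0.74 across the 11288 genes. Over all 15 pairs of restricted steers r ran from -0.16 to 0.74, with a median of 0.18. Every pair without steer 6 had r of 0.15 or more, and the pairs with steer 6 had r between -0.16 and 0.06. These correlations are descriptions across genes, which are not independent replicates, and changes of samples that share a scaling or a library composition can correlate for that reason, which was not tested.

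The number of genes called depended on which steers entered the fit. It rose when both samples of steer 6 were left out and fell when both samples of any other restricted steer were. Without the 2 samples of steer 6 the edgeR test called 151 genes, 105 higher and 46 lower at day 131. Without day 99 of steer 6 alone it called 153 (107 higher and 46 lower), and without day 131 of steer 6 alone it called 41. Leaving out both samples of steers 1 to 5 gave 19, 13, 5, 19 and 5 genes. Among single samples, leaving out day 99 of steer 2, 3 or 5 gave 22, 24 and 21 genes, and leaving out day 131 of steer 4 gave 25. Leaving out any other single restricted sample gave 33 to 53.

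**Figure D4:**
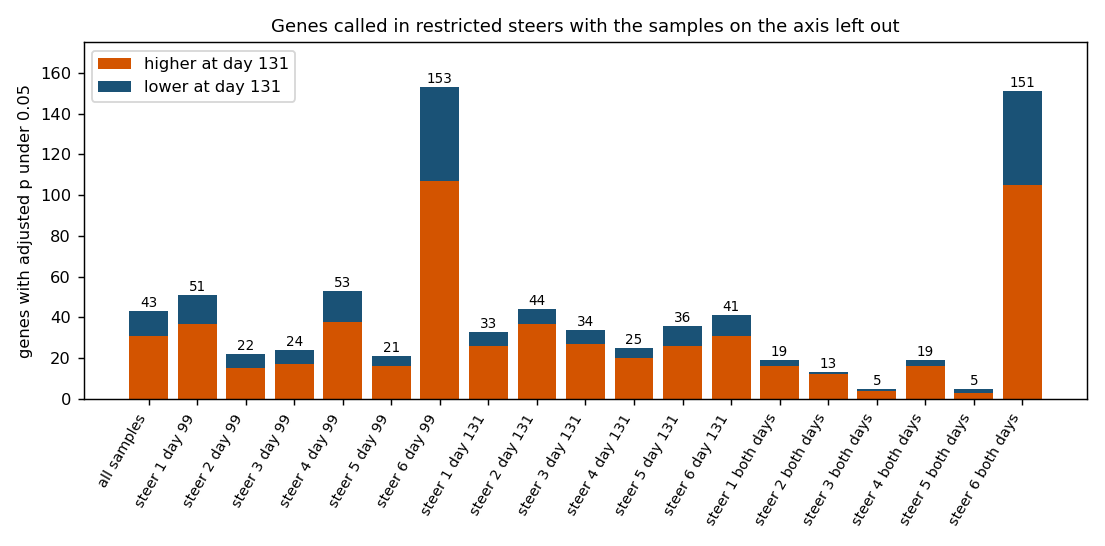
Bars show how many genes had an adjusted p under 0.05 between the days in restricted steers when the samples on the axis were left out, split into genes higher and lower at day 131. The 2 fits that lack the day 99 sample of steer 6 stand at 153 and 151, against 43 with all samples, and the fits without both samples of steer 3 or of steer 5 stand at 5.

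A steer left out of the fit gives values that did not choose the genes. The genes called without steers 1, 3, 4 and 5 all changed in the same direction in the steer left out: 19 of 19, 5 of 5, 19 of 19 and 5 of 5. Without steer 2 it was 12 of 13. The median change in the steer left out, in the direction of the fit, was 1.35 to 1.78 on the log2 scale in these 5 steers. Between 58.9% and 80.9% of all genes tested changed in the steer left out in the same direction as in the fit of the others. The counts of 5 to 19 genes are to be read beside that share. The lists also overlap: ENSBTAG00000002444 and ENSBTAG00000006882, for example, were called whichever steer was left out. Genes of 1 animal are not independent replicates, so the counts are a description and not separate tests.

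Steer 6 shared the direction less widely. Of the 151 genes called in the other 5 restricted steers, 88 (58.3%) changed in the same direction in steer 6, against 40.7% of all genes tested. These were 71 of the 105 that rose and 17 of the 46 that fell. The median change in the direction of the fit was 0.15, and 26 of the 151 changed by more than 1. At day 99 steer 6 lay beyond the mean of the other 5 steers, on the side of the day 131 level, in 144 of the 151 genes. This does not mean that it lay beyond each of them. Its median distance from that mean over the 151 genes was 0.97 on the log2 scale. At day 131 it lay beyond the mean of the others in the direction of the fit in 32 genes. Such a day 99 position relative to the mean of the others was also seen in steers 1, 3, 4 and 5. It was found in 19 of 19 genes called without steer 4 and in 16 of 19 called without steer 1. The median distances over these genes were 0.70 and 0.41. It was found in 4 of 5 genes called without steer 5 and in 3 of 5 called without steer 3, with median distances of 0.47 and 0.22. Steer 2 went the other way, with 2 of 13 genes and a median of -0.50. The 151 genes were chosen from the other 5 steers, whose day 99 values are extreme in these genes by that choice, so where steer 6 lies at day 99 is partly set by that choice. The difference between steer 6 and the others was not tested, as it is 1 animal.

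**Figure D5:**
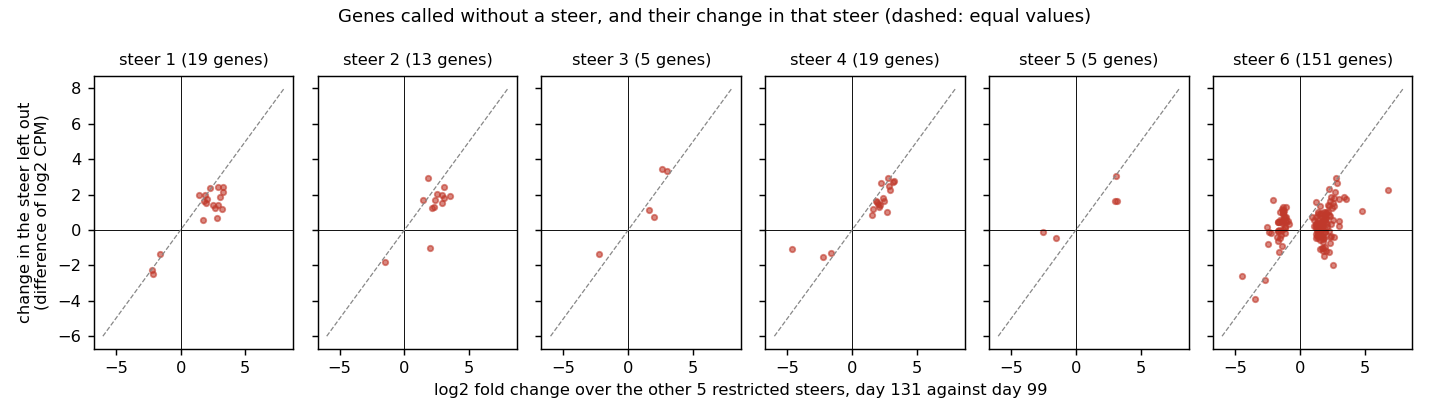
In each panel the genes called without 1 restricted steer are plotted, with their log2 fold change over the other 5 steers on the horizontal axis and their change in the steer left out on the vertical axis, and the dashed line marking equal values. In steers 1 to 5 the points lie in the quadrants of the same sign with 1 exception, and in steer 6, 88 of 151 do.

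Large fitted changes were not all called. A log2 fold change above 2 was found for 32 genes, of which 19 were called, and one under -2 for 24 genes, of which 7 were called. In 10 of the 17 large falls that were not called, 1 day 99 sample held over 50% of the CPM summed over that day, and the highest sample was steer 6 in 10 genes and steer 5 in 6. In the 7 large falls that were called this was so for 1 gene. The largest uncalled fall, -4.28 with an edgeR adjusted p of 0.109, came from steer 6 at day 99 with 256.1 CPM, while the other 5 steers had 0.741 to 3.61 CPM at day 99 and all 6 had 0 to 3.76 CPM at day 131. In 4 of the 13 large rises that were not called, 1 day 131 sample held over 50%, and the highest sample was steer 4 in 8 genes.

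The largest uncalled rise was shared by all 6 restricted steers. Its values ran from 0.475 to 2.66 CPM at day 99 and from 3.21 to 98.7 CPM at day 131, with no overlap. Its log2 fold change was 4.44 with an edgeR adjusted p of 0.138, and 0.00835 with the steer block. In control steers its log2 change was 2.99, and there steer 1 reached 173.3 CPM at day 131 while the other control steers had 0.288 to 10.8 CPM.

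Sequencing runs, read from the date in the file names, did not coincide with the days, but no restricted steer had both days in 1 run. Run 1 held no restricted sample of day 131. Within runs 2, 3 and 4 the difference between the days, with different steers on each side, was 5.85, 4.58 and 3.24 on the log2 scale for ENSBTAG00000010411 and 3.99, 4.87 and 1.98 for ENSBTAG00000046988. For ENSBTAG00000014069 it was -4.31, -3.25 and -2.32, and for ENSBTAG00000016768 it was -2.45, -3.05 and -2.06. The median over the genes that rose was 1.88, 2.52 and 1.45, and over those that fell -2.12, -1.82 and -1.22. These values come from 1 or 2 samples a day in each run. The genes were chosen for their change in these same samples, which largely fixes the sign of the values, so they are a description and no test of a run effect. A fit that took the run into account called 32 genes, 25 higher and 7 lower, and each of them was among the 43.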

How the data were processed

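The authors deposited unnormalized read counts for each gene, with one file per library, from paired-end sequencing of poly(A)-selected RNA from muscle biopsies, per the labels' protocols. Per the submitters' processing notes, the authors used CASAVA 1.4, Bowtie, SAMtools and HTSeq with genome build UMD3.1. Neither strand setting nor annotation release is given in the sources used here. Genes that overlap, antisense pairs and near-identical copies may therefore share reads. Coordinates and sequences were not used here.

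Technical libraries were summed. Restricted steer 2 at day 99 had 3, which were counted as 1 sample. Among genes of 10 or more counts these differed by less than the sampling noise, with a chi-square of 0.525 to 0.625 for each degree of freedom (restricted steers of a group differed by 14.1 to 193.4). Among genes of 10000 or more counts the values were 1.01 to 2.32, at or above that noise. Ratios below 1 are lower than independent counts give, so the summed depth of that sample may be overstated. The limits given for 0 counts cover counting error only.

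In R 4.3.3 the 24 samples, in 4 groups of 6, were fitted together with edgeR 4.0.16 (filterByExpr with a minimum count of 10, TMM, robust glmQLFit, two-sided quasi-likelihood test, Benjamini-Hochberg at 0.05). This main fit had no steer term, and its biological coefficient of variation was 0.417. The SE is the absolute log2 fold change divided by the root of F. CPM uses TMM-scaled totals, and log2 CPM a prior count of 2. The fits with and without the steer block were run on simulated counts that held no steer or run effect. The simulation therefore cannot decide between the fits. The labels number the animals, and these numbers were used to pair the days. After subtraction of group means, the 2 samples of a restricted steer correlated across genes with r of -0.03 to 0.40. This r was over 0.1 in 4 of 6 restricted steers. In control steers it ran from -0.61 to 0.52. No r between different steers is given beside these values, so they do not test the pairing.

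Named genes are the 2 with the largest rise and the 2 with the largest fall among called genes of at least 1 mean CPM over the restricted samples. The most abundant called genes and the largest uncalled changes were chosen after their values were seen. The 46 gene and marker lists prepared need symbols and were not run. The comparison, lists and rules were chosen with earlier results of these data known. Alternatives were the steer block, the restricted samples alone, DESeq2 1.42.0, limma 3.58.1 (voom), other scalings and filters, run as a covariate, the first technical library and leaving out samples.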

Additional observations from a re-analysis of the deposited data

How the results depend on the processing

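For restricted steers, day 131 against day 99, the 43 genes called (31 higher, 12 lower) became 62 (46 and 16) with the steer as a replicate block, 300 (206 and 94) with the block on the restricted samples alone, and 92 (53 and 39) on the restricted samples alone without it. The fits on the restricted samples alone tested 10187 genes and not 11288. DESeq2 called 239 (159 and 80), including all 43, and limma voom 66 (53 higher). A minimum mean of 5 CPM left 17 (11 and 6), and run as a covariate left 7 lower. The causes were not tested. Median-ratio scaling, no filter and the first technical library gave 47, 44 and 44. Leaving out the 3 samples with a TMM factor over 1.3, an alternative chosen after seeing the data, gave 66 (48 higher). Leaving out a restricted sample, or both samples of a steer (also chosen after seeing the data), gave 5 to 153 genes, 3 to 107 higher and 1 to 46 lower. The interaction gave 0 genes with edgeR under every alternative run and 2 with DESeq2; control steers gave 0 in all. Of the named genes, ENSBTAG00000010411 kept its call in 19 of 29 alternative fits, ENSBTAG00000046988 in 18 of 28, ENSBTAG00000014069 in 20 of 29 and ENSBTAG00000016768 in 11 of 26, with no change of sign. The block over all 24 samples changed no call of a named gene. Counts of genes in 1 direction in every steer stayed within 1.5 times under median-ratio scaling, no scaling beyond the total and the first technical library, all tried after seeing the data. The alternatives for gene lists were not run. With 4023531 counts in the shallowest restricted sample, a gene under about 1 CPM rests on few reads.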
